A study of Sus scrofa with 8 samples.

Results

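The genes described here are 96 members of the ubiquitin system whose RNA was measured in the biceps femoris, a muscle of the hind limb, in female piglets. They are the genes whose array symbol starts with UBE2, UBE3, UBE4, FBXO, FBXL, FBXW, CUL, USP, RNF or TRIM, and 106 genes on the array fit that name rule. A gene's brightest probe set on average stood for it, and 96 of the 106 had a mean log2 level above 5.27 over the 8 arrays. The 96 are part of 5406 named genes tested. The member just inside the level was FBXO2 at 5.289, followed by TRIM29 at 5.602. Just outside were TRIM50 at 5.211, TRIM15 at 5.137, FBXL4 at 5.092 and UBE2C at 5.041. The remaining 6 left out were FBXO34, USP30, RNF207, FBXL2, FBXL16 and TRIM59. The only probe set of the muscle ligase TRIM63 carries a second symbol, TARDBP, and was not used.

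The control group held 4 arrays from piglets that were sedated and mechanically ventilated, sampled at day 5. Their protocol counts 4 piglets, weighing 25.5 kg on average, and also lists Escherichia coli endotoxin at 36 µg/kg/h for 1 h, of which the source label says nothing. The corticosteroid group held 4 arrays from sedated and ventilated piglets that also received bolus doses of hydrocortisone for 5 days, under a protocol that counts 8 piglets, weighing 26.4 kg on average, and lists no endotoxin. All animals received isoflurane with morphine and ketamine, glucose, streptomycin and bensylpenicillin, and every sample is labelled acute quadriplegic myopathy, the limb weakness of intensive care. The series text also names pancuronium, a neuromuscular blocker, without saying which animals had it, and no age is given. The treatment, the endotoxin and any processing difference between the groups cannot be told apart. Whether the arrays are separate animals is not in the labels, and p-values therefore reflect only how these samples spread, which may be technical.

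Ubiquitin is a small protein that is joined to other proteins in a relay. An activating enzyme (E1) passes it to a conjugating enzyme (E2, here most of the UBE2 genes), and a ligase (E3) directs it to a target. RING finger proteins, including most of the RNF and TRIM families, bring E2 and target together. HECT ligases such as UBE3A carry ubiquitin themselves, and U-box proteins (UBE4A, UBE4B) resemble RING ligases. Cullins are scaffolds that hold a RING protein at one end and, in the case of CUL1, an F-box protein that picks the target at the other. Deubiquitinases of the USP family take ubiquitin off again. In skeletal muscle the F-box protein FBXO32 (atrogin-1) and the RING ligase TRIM63 (MuRF1) are known for their induction when muscle wastes, and glucocorticoids are a classical inducer of both.

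The values of 35 members depend on a correction of row order. Judged from the values, the corticosteroid columns of the deposited table follow another order of probe IDs than the control columns, and they were re-assigned to IDs sorted with full stops ignored. Across these 35 genes the correlation of the group means was -0.0357 as deposited and 0.9751 after re-ordering, beside 0.9763 across the 61 members that were not moved. Among the members described singly below, FBXL5, RNF10, UBE3D, TRIM13, UBE2D4, USP5, CUL4A, CUL2 and USP18 are moved members. The other probe sets given below for RNF149, RNF14 and UBE2D4 were also moved, as were those of FBXW7 at 0.02 and 0.16. With the rows as deposited, 28 of 96 members passed the threshold, beside 34.9% of all probe sets, and 5 of the 29 named genes had the opposite sign.

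No member passed the test between corticosteroid and control muscle. In limma with Benjamini-Hochberg adjustment over all probe sets, 0 of 96 members reached an adjusted p of 0.05, and the lowest value, 0.469, was that of FBXO3. Over all 14361 probe sets tested the same count was also 0 (0%). At an unadjusted p under 0.05, 2 members lay higher with corticosteroid (FBXO3 and TRIM24), against a background of 4.78% of all probe sets. In the other direction there was 1 member, UBE2N, against a background of 4.71%. Together these 3 make up 3.12% of the members, beside 9.17% of all genes tested. The treated arrays lay wholly above the controls for 3 members (FBXO3, FBXL5 and RNF25), beside 3.05% of probe sets. They lay wholly below for 0 members, beside 2.51% of probe sets.

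The counts at an unadjusted p under 0.05 depended on single arrays. The higher count was 1 without control replicate 2 (beside 3.64% of all probe sets) or without corticosteroid replicate 2 (3.86%) and reached 4 without control replicate 4 (5.46%). The lower count was 0 without control replicate 3 or 4 or without corticosteroid replicate 2, 3 or 4, beside 2.94% to 4.32% of all probe sets. Leaving out control replicate 1 gave 3 (6.18%), and leaving out corticosteroid replicate 1 gave 5 (5.59%). The number of members whose groups did not overlap ran from 4 to 12 when 1 array was left out, and the share of all probe sets without overlap ran from 7.3% to 12.6%.

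Differences were small for most members. The median absolute log2 difference was 0.22 over the 96 members and 0.21 over all genes tested. The median standard error was 0.22 in both. For 79 members (82.3%) the 95% interval of the difference lay within 1 log2 unit of 0 on both sides, beside 73.7% of all genes tested. For 17 members (17.7%) it lay within 0.5 log2 units, the same share as over all genes. The median difference was 0.06 over the members and 0.03 over all genes, with 60 of 96 member means higher (62.5%) and 54% of all gene means higher.

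**Figure D1:**
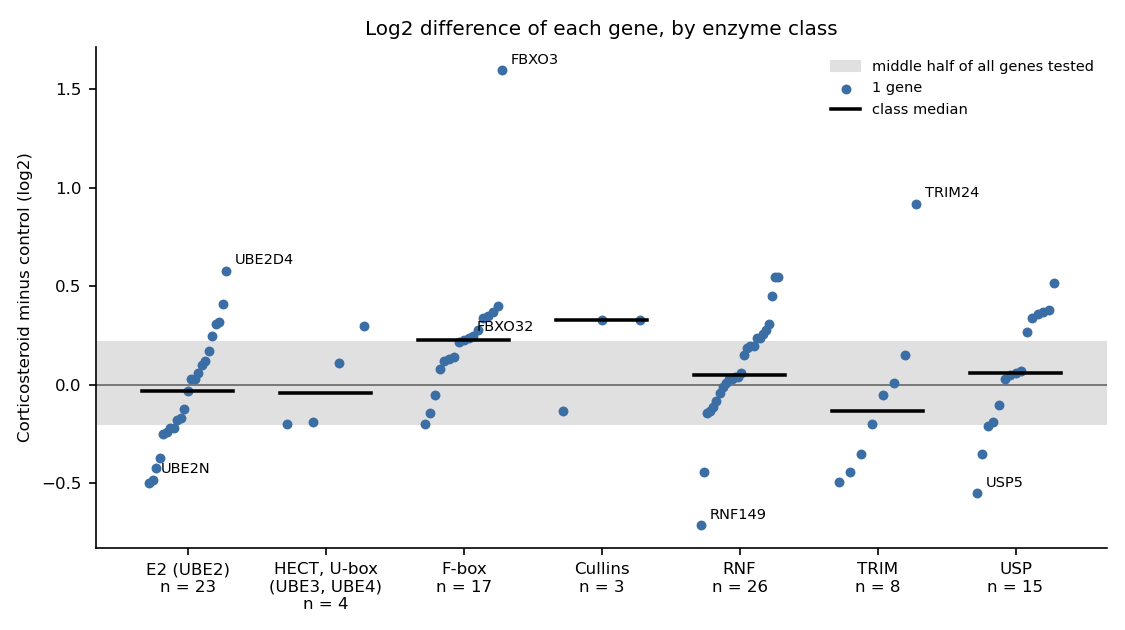
Log2 difference (corticosteroid minus control, vertical axis) of each of the 96 genes by enzyme class; points are genes, black lines are class medians and the grey band runs between the quartiles of all genes tested (-0.20 to 0.22). FBXO3 (1.60) and TRIM24 (0.92) are the highest points, and RNF149 (-0.71) is the lowest.

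The classes differed in the balance of their signs. F-box proteins had 14 of 17 means higher and a median difference of 0.23. Cullins had 2 of 3 higher (median 0.33), RING finger proteins 18 of 26 (0.05) and deubiquitinases 10 of 15 (0.06). Without control replicate 2 the deubiquitinases had 7 of 15 higher and a median of -0.02, and the cullin median was 0.09. The E2 enzymes were balanced, with 11 higher and 12 lower (-0.03). In rows unmoved by the re-ordering, 6 of 15 E2 genes were higher (median -0.17) and 15 of 18 RING finger proteins (0.17). The E2 median was 0.10 without control replicate 3. The 4 HECT and U-box ligases had 2 each way (-0.04), and the TRIM proteins had 3 of 8 higher (-0.13). These are counts over genes that share the same arrays, and the classes were not tested against each other.

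E2 enzymes. The member with the smallest p was UBE2N, which builds a type of ubiquitin chain used in signalling and DNA repair rather than in degradation. Its log2 levels were 9.72, 10.17, 9.91 and 9.85 on control replicates 1 to 4 and 9.86, 9.39, 9.11 and 9.36 on corticosteroid replicates 1 to 4. Corticosteroid replicate 1 lay among the controls, and the 3 other treated arrays lay below all of them. The mean was 9.91 ± 0.19 (SD, n = 4) in controls and 9.43 ± 0.31 (SD, n = 4) with corticosteroid, a difference of -0.48 (SE 0.20, 95% interval -0.94 to -0.03, adjusted p = 0.503 in limma). When 1 array was left out the difference ran from -0.63 to -0.38.

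UBE2N works only together with a partner that lacks the catalytic cysteine, UBE2V1 or UBE2V2. These partners were looked at for that reason, outside the rule for named genes. UBE2V1 differed by -0.22 (SE 0.15), and its other probe sets by -0.46 (SE 0.20) and -0.03 (SE 0.15). UBE2V2 differed by 0.06 (SE 0.18). The intervals of both chosen probe sets, -0.55 to 0.11 for UBE2V1 and -0.35 to 0.47 for UBE2V2, include 0. The UBE2V1 probe set at -0.46 had an unadjusted p of 0.0482 and an adjusted p of 0.524 in limma.

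UBE2D2, a general E2 that serves many RING ligases, had log2 levels of 12.23, 12.01, 12.39 and 12.16 on the control arrays and 12.03, 12.15, 11.71 and 11.89 on the treated arrays. The groups overlapped and the difference was -0.25 (SE 0.14, adjusted p = 0.572). Its other probe sets differed by -0.01 (SE 0.19) and -0.15 (SE 0.20). UBE2L3, which serves HECT ligases and parkin, differed by -0.37 (SE 0.23), but by -0.02 (SE 0.25) at its other probe set. It was -0.59 at the chosen probe set without corticosteroid replicate 1. UBE2E2 differed by -0.42 (SE 0.25), by -0.64 without control replicate 1 and by -0.26 without control replicate 3.

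On the higher side, UBE2D4, a relative of UBE2D2, differed by 0.58 (SE 0.35), and its other probe sets by 0.71 (SE 0.36) and 0.76 (SE 0.30). The 3 probe sets shared a direction, but without control array 2 and corticosteroid array 4 the difference of the chosen one was 0.14, and with the rows as deposited it was -1.68. UBE2B, an E2 known from work on protein breakdown in wasting muscle, stood at 10.59, 10.35, 10.71 and 10.83 in controls and at 10.85, 10.48, 11.43 and 10.95 with corticosteroid. Corticosteroid replicate 3 held the highest value, and the groups overlapped. The difference was 0.31 (SE 0.21, 95% interval -0.17 to 0.79), and 0.14 without corticosteroid replicate 3. The other 17 E2 genes are UBE2A, UBE2D3, UBE2E3, UBE2F, UBE2G2, UBE2H, UBE2J2, UBE2K, UBE2M, UBE2O, UBE2Q1, UBE2QL1, UBE2R2, UBE2T, UBE2V1, UBE2V2 and UBE2W. They differed by -0.50 to 0.41, with 9 means higher and 8 lower.

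**Figure D2:**
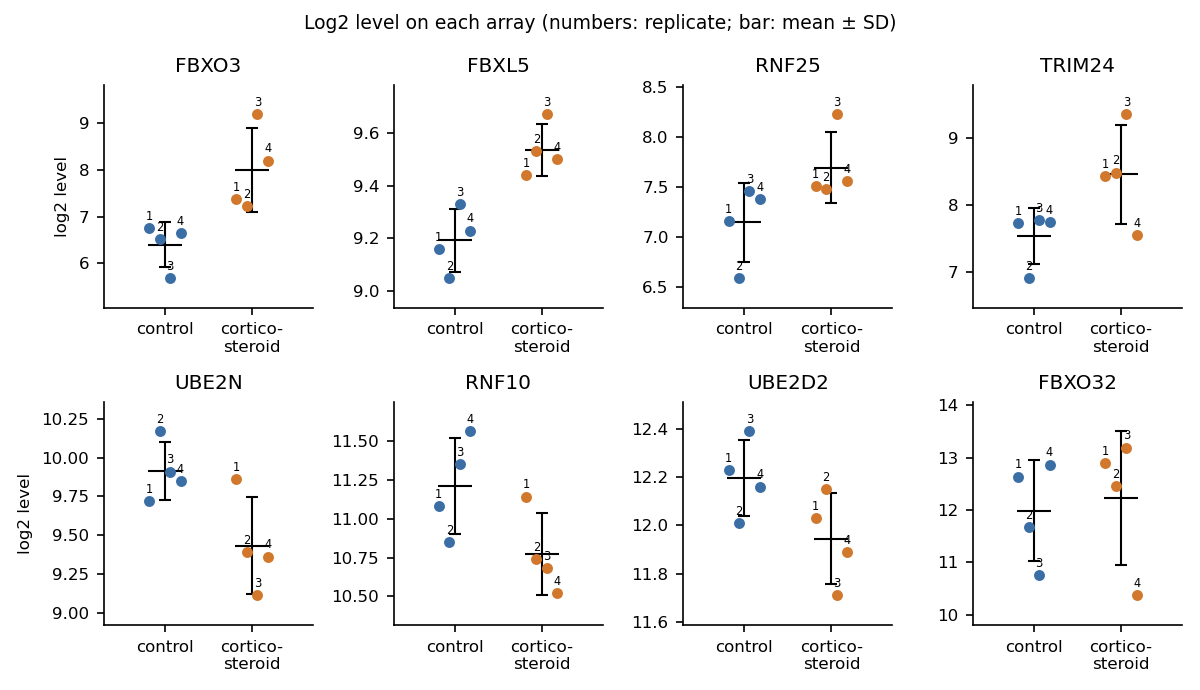
Log2 level (vertical axis) of 8 genes on each array; small numbers are replicate numbers, horizontal bars are group means and whiskers are SDs (n = 4). FBXO3, FBXL5 and RNF25 have all treated arrays above all controls, while FBXO32 has its lowest values on corticosteroid replicate 4 (10.37) and control replicate 3 (10.76).

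F-box proteins. FBXO3, which among other targets directs the breakdown of the F-box protein FBXL2, had the largest difference of the 96 members. Its log2 levels were 6.75, 6.52, 5.68 and 6.64 in controls and 7.37, 7.23, 9.20 and 8.20 with corticosteroid. All treated values lay above all controls, and corticosteroid replicate 3 was the highest. The mean was 6.40 ± 0.49 (SD, n = 4) in controls and 8.0 ± 0.91 (SD, n = 4) with corticosteroid. The difference was 1.60 (SE 0.43, 95% interval 0.64 to 2.57), a ratio of 3.04 on the linear scale, with an adjusted p of 0.469 in limma. FBXO3 is not a moved member, and its difference was the same with the rows as deposited, where more probe sets had small p-values and its adjusted p was 0.0131. It was 1.20 without corticosteroid replicate 3. FBXO3 has 1 tested probe set, so no other probe set bears on it.

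FBXL5 senses iron and, when iron is plentiful, marks an iron regulatory protein for breakdown. It had levels of 9.16, 9.05, 9.33 and 9.23 in controls and 9.44, 9.53, 9.67 and 9.50 with corticosteroid. The groups did not overlap and the spread within each was small. The difference was 0.34 (SE 0.16, 95% interval -0.01 to 0.69, adjusted p = 0.525), and leaving out 1 array gave 0.29 to 0.39. With the rows as deposited it was -4.0, since FBXL5 is a moved member.

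FBXO32, the atrophy ligase atrogin-1, did not separate the groups. Its levels were 12.64, 11.68, 10.76 and 12.87 in controls and 12.90, 12.46, 13.19 and 10.37 with corticosteroid. Corticosteroid replicates 1 and 3 lay above every control, replicate 2 lay among the controls, and replicate 4 was the lowest of all 8 arrays. The mean was 11.99 ± 0.96 (SD, n = 4) in controls and 12.23 ± 1.28 (SD, n = 4) with corticosteroid, a difference of 0.24 (SE 0.64, adjusted p = 0.911 in limma). The 95% interval, -1.20 to 1.69, is wide enough to hold changes of more than 1 log2 unit either way. The difference was 0.86 without corticosteroid replicate 4, 0.02 without corticosteroid replicate 1, -0.08 without corticosteroid replicate 3 and -0.16 without control replicate 3.

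The other FBXO32 probe set gave 12.36, 11.13, 10.32 and 12.92 in controls and 12.69, 12.21, 13.25 and 9.66 with corticosteroid, a difference of 0.27 (SE 0.79). The order of the 8 arrays was the same at both probe sets, except that control replicate 4 and corticosteroid replicate 1 changed places. FBXO32 had the second-largest spread within groups among the 96 members, with a pooled SD of 1.13. The largest was that of RNF128, a ligase known from T-cell anergy, at 1.24. RNF128 was chosen after its values were seen. Its control replicate 3 stood at 4.12 and its other values at 5.95 to 7.64.

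FBXO21, an F-box protein also linked to muscle atrophy, differed by 0.40 (SE 0.22, adjusted p = 0.572). Its 3 other tested probe sets were higher as well, by 0.12, 0.53 and 0.30. FBXW5 differed by 0.35 (SE 0.18, adjusted p = 0.552) and by 0.21 without control array 2 and corticosteroid array 4. FBXW7, which marks cyclin E and MYC for breakdown, differed by -0.20 (SE 0.20), with its other tested probe sets at 0.02, -0.18 and 0.16. Without control replicate 4 it was -0.06. The other 11 F-box genes are FBXO2, FBXO6, FBXO7, FBXO9, FBXO11, FBXO22, FBXO31, FBXO38, FBXO44, FBXW4 and FBXW9, with differences of -0.14 to 0.37 and 9 of 11 means higher.

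The 12 FBXO genes had 10 means higher (median 0.22) and the 4 FBXW genes 3 (median 0.24). Without FBXO3 the class kept 13 of 16 means higher and a median of 0.22. Control replicate 2 held the lowest of the 8 values for 7 of the 17 F-box genes. Its class score, the mean log2 deviation of the genes from their own means, was -0.323. The scores of control replicates 1, 3 and 4 were 0.007, -0.283 and 0.087, and the treated scores were 0.041, 0.099, 0.289 and 0.083. Control replicate 4 lay among the treated arrays. Without control replicate 2, 13 of 17 means were higher and the median was 0.14. With corticosteroid replicate 4 left out as well, the median was 0.07.

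Cullins and other ligases. CUL1, the scaffold that F-box proteins join, had levels of 9.80, 9.14, 10.19 and 10.30 in controls and 10.40, 10.09, 10.31 and 9.97 with corticosteroid. Control replicate 2 was the lowest and the other arrays overlapped. The difference was 0.33 (SE 0.26, adjusted p = 0.667), and 0.09 without control replicate 2. CUL4A, which works with DDB1, differed by 0.33 (SE 0.28), and by 0.01 without control array 2 and corticosteroid array 4. CUL2, the scaffold of the von Hippel-Lindau ligase, differed by -0.13 (SE 0.19). With the rows as deposited CUL4A differed by -3.80 and CUL2 by -2.20, both past the threshold.

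Among the HECT and U-box ligases, UBE3D differed by 0.30 (SE 0.17, adjusted p = 0.572), with 0.44 (SE 0.22) at its other probe set. With the rows as deposited its chosen probe set differed by -0.96. UBE3A, the HECT ligase lost in Angelman syndrome, differed by -0.19 (SE 0.19), by -0.30 without control replicate 2 and by -0.07 without corticosteroid replicate 4. The U-box proteins UBE4A and UBE4B, which lengthen ubiquitin chains, differed by 0.11 (SE 0.26) and -0.20 (SE 0.23). UBE4B was at -0.09 without control replicate 3 or corticosteroid replicate 4, and at -0.34 without corticosteroid replicate 3. UBE4A was at -0.18 without control array 2 and corticosteroid array 4. All 4 intervals lay within 1 log2 unit of 0.

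RING finger proteins. RNF25 stood at 7.16, 6.59, 7.46 and 7.38 in controls and at 7.51, 7.48, 8.23 and 7.56 with corticosteroid. The treated values lay above all controls, with the closest pair 7.46 and 7.48. The difference was 0.55 (SE 0.25, adjusted p = 0.526), and 0.36 without control replicate 2. RNF14, a ligase that also binds the androgen receptor, differed by 0.45 (SE 0.26) and by 0.16 without control array 2 and corticosteroid array 4, and its other probe set by 0.09 (SE 0.23).

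RNF10, which ubiquitinates ribosomal proteins when translation stalls, went the other way. It had levels of 11.08, 10.85, 11.35 and 11.56 in controls and 11.14, 10.74, 10.68 and 10.52 with corticosteroid. Corticosteroid replicate 1 lay among the controls and the other treated arrays below them. The difference was -0.44 (SE 0.20, 95% interval -0.89 to 0.01, adjusted p = 0.525). RNF149 had the lowest difference of the 96 members, -0.71 (SE 0.45), with its other tested probe sets at -0.79 (SE 0.50) and -0.68 (SE 0.36). Without control replicate 3, its highest array at 9.43, the difference was -0.32.

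The other 22 RNF genes, with differences of -0.14 to 0.55 and 16 of 22 means higher, are RNF2, RNF5, RNF7, RNF13, RNF19B, RNF20, RNF40, RNF44, RNF103, RNF113A, RNF114, RNF121, RNF128, RNF130, RNF135, RNF146, RNF170, RNF181, RNF185, RNF214, RNF216 and RNFT1.

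TRIM proteins. TRIM24, a ligase for p53 and a cofactor of nuclear receptors, had levels of 7.72, 6.90, 7.77 and 7.74 in controls and 8.43, 8.48, 9.36 and 7.55 with corticosteroid. Corticosteroid replicate 4 lay among the controls and the other treated arrays above them. The mean was 7.54 ± 0.42 (SD, n = 4) in controls and 8.46 ± 0.74 (SD, n = 4) with corticosteroid. The difference was 0.92 (SE 0.37, 95% interval 0.10 to 1.75, adjusted p = 0.484 in limma). It ran from 0.62 without corticosteroid replicate 3 to 1.22 without corticosteroid replicate 4.

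TRIM27 differed by -0.44 (SE 0.25, adjusted p = 0.574), and by -0.28 without control replicate 3. TRIM13, a ligase anchored in the endoplasmic reticulum, differed by -0.49 (SE 0.29), by -0.76 without control replicate 1 and by 0.57 with the rows as deposited. TRIM55 (MuRF2) is a sarcomere protein related to MuRF1. Its levels were 8.78, 8.94, 8.85 and 8.88 in controls, a narrow range, and 8.98, 9.02, 8.19 and 9.88 with corticosteroid. The treated arrays lay on both sides of the controls. The difference was 0.15 (SE 0.31, 95% interval -0.55 to 0.85), and -0.14 without corticosteroid replicate 4. TRIM26, TRIM29, TRIM44 and TRIM52 differed by -0.35 to 0.01.

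Deubiquitinases. USP28, known to stabilise MYC, differed by 0.38 (SE 0.23, adjusted p = 0.588) and by 0.15 without control array 2 and corticosteroid array 4. USP5, which takes apart free ubiquitin chains, had levels of 8.74, 8.71, 8.51 and 9.23 in controls and 9.32, 7.98, 8.19 and 7.48 with corticosteroid. Corticosteroid replicate 1 was the highest of the 8 arrays and the other treated arrays were below all controls. The difference was -0.55 (SE 0.36, adjusted p = 0.614), -0.91 without corticosteroid replicate 1 and -0.30 without corticosteroid replicate 4. With the rows as deposited it was -1.71. The other 13 genes are USP2, USP3, USP4, USP7, USP8, USP9X, USP10, USP11, USP16, USP18, USP21, USP24 and USP36. They differed by -0.35 to 0.52, with 9 of 13 means higher.

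**Figure D3:**
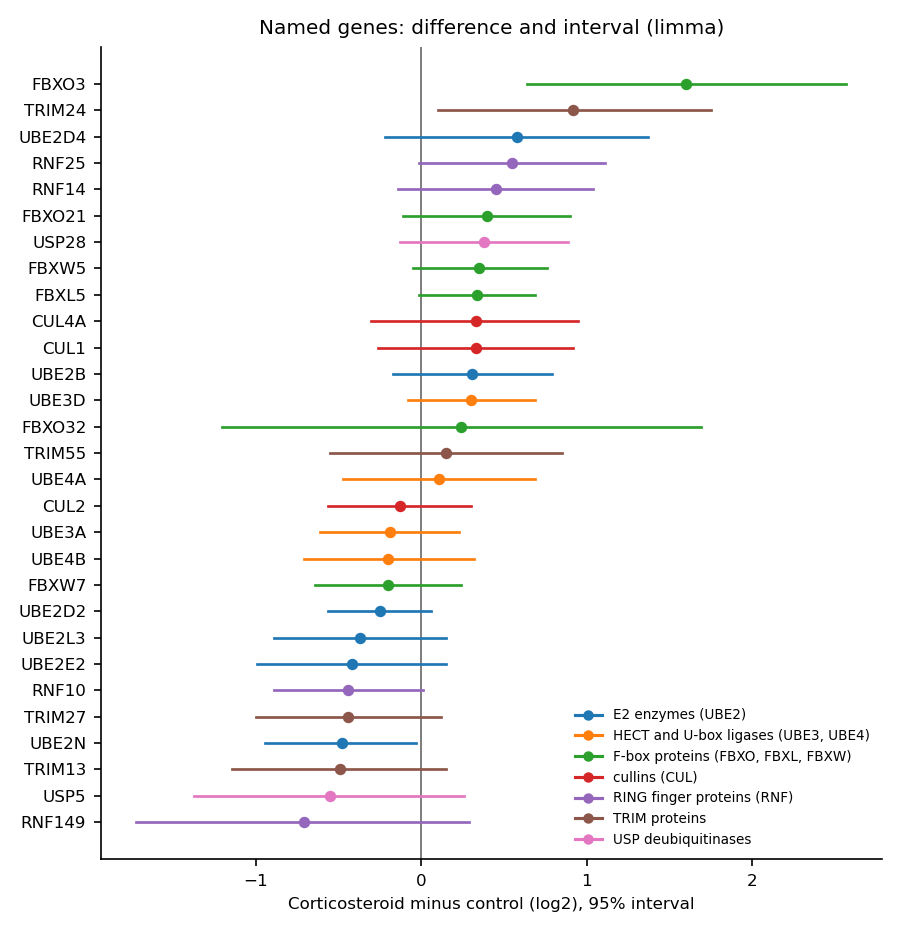
Log2 difference (corticosteroid minus control) with its 95% interval from limma for the 29 named genes, coloured by enzyme class. The intervals of FBXO3, TRIM24 and UBE2N leave out 0 before adjustment, and FBXO32 has the widest interval of these genes (-1.20 to 1.69).

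Agreement between probe sets could be followed for 33 members with more than 1 tested probe set. Of their 43 other probe sets, 36 had the same sign of difference as the chosen one. For 27 of the 33 genes all tested probe sets had the same sign. Of the 43, 2 had an unadjusted p under 0.05 (1 of UBE2D4 and 1 of UBE2V1), beside 9.49% of all probe sets tested. For 0 of the 43 were the groups apart, beside 5.56% of all probe sets tested.

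Other genes of the pathway were taken from 6 lists and also held 0 genes past the threshold. The ubiquitin precursor UBB differed by 0.20 (SE 0.11) and RPS27A, which encodes ubiquitin fused to a ribosomal protein, by -0.01 (SE 0.08). Of 13 cullin partners tested, 8 means were higher (median 0.12), and elongin B (ELOB), an adaptor of CUL2, differed by 0.53 (SE 0.18, adjusted p = 0.479) with the groups apart. ELOB was the only cullin partner without overlap, 7.69% of that list beside 5.42% of all genes tested. Of 18 other ligases, 11 were higher (median 0.08), with ANAPC2 at 0.52 (SE 0.22), ARIH2 at 0.57 (SE 0.27) and STUB1, the chaperone-linked ligase CHIP, at 0.41 (SE 0.23).

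Of 13 deubiquitinases outside the USP family, 9 were higher (median 0.08). UCHL3 differed by 0.64 (SE 0.20, adjusted p = 0.479) and JOSD2 by 0.50 (SE 0.17, adjusted p = 0.479), both with the groups apart. These 2 are 15.4% of the list, beside 5.42% of all genes tested. The 4 lower genes included UCHL1 at -0.68 (SE 0.72) and PSMD14 at -0.65 (SE 0.37), with the groups overlapping. Of 13 genes of ubiquitin-like modifiers, 7 were higher (median 0.00), with UFM1 at -0.48 (SE 0.27) and UBA2, an E1 subunit for SUMO, at -0.34 (SE 0.20). Of 10 ubiquitin receptors and segregase genes, 4 were higher (median -0.04), with the smallest p for FAF2 at 0.20, OPTN at 0.22 and UBXN6 at 0.24, none at an unadjusted p under 0.05.

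**Figure D4:**
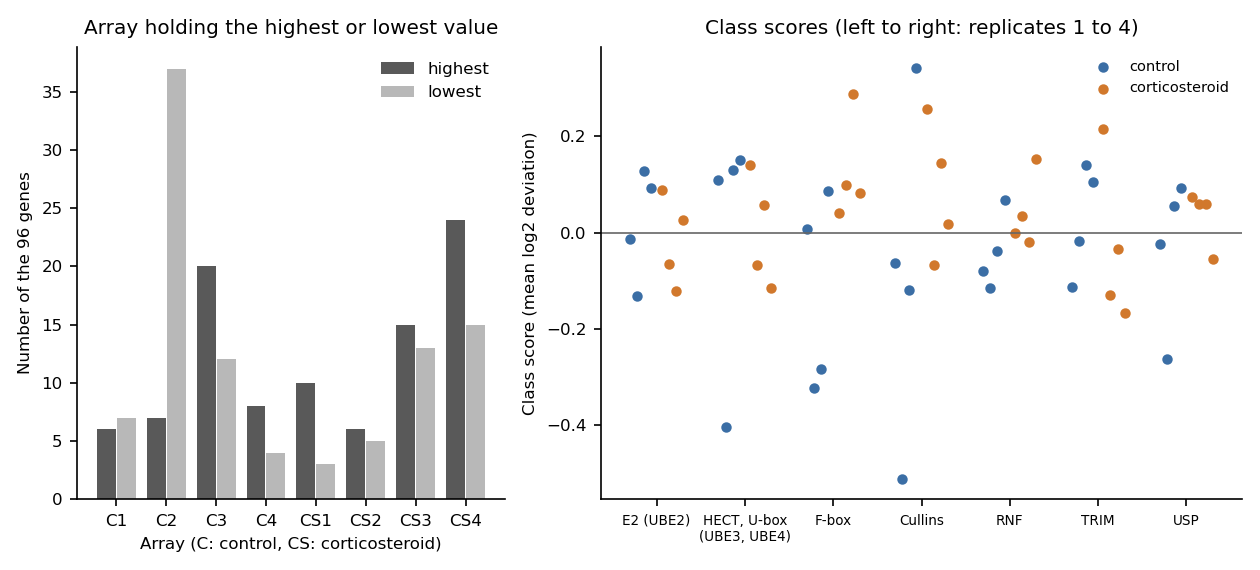
Left, number of the 96 genes whose highest or lowest value lies on each array (C, control; CS, corticosteroid); right, class score (mean log2 deviation from each gene's own mean) of every class on each array, replicates 1 to 4 from left to right. Control replicate 2 holds the lowest value for 37 genes, and in every class the scores of the groups overlap.

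Control replicate 2 held the lowest value for more members than any other array. These were 37 of the 96 genes (38.5%), beside 23.6% of all genes tested, also the largest share there. It held the highest value for 7.29% of members and 21.1% of all genes. Its score over all members was -0.195, which is not among the outlying arrays flagged below. The scores of the other control arrays were -0.034, -0.008 and 0.096, and the treated scores ran from 0.004 to 0.072. Without control replicate 2, 51 of 96 members had higher means and the median difference was 0.02. Corticosteroid replicate 4 held the highest value for 24 members (25%), beside 21.3% of all genes.

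The tissue carried its defining markers, with a mean log2 level of 12.85 to 13.28 per array over 8 muscle fibre genes. Of these, 0 passed the threshold and 3 (37.5%) had an unadjusted p under 0.05, beside 9.17% of all genes tested. Each of the 3 had the groups apart: TNNT1 (-1.78) and MYH7 (-1.17), genes of slow fibres, and TNNT3 (0.66), a gene of fast fibres. CKM (0.10) also had the groups apart, so the share without overlap was 50%, beside 5.42% of all genes tested. For CKM the gap was smaller than the rounding, as the highest control and the lowest treated value were both 13.99. Macrophage markers were higher on control replicate 2, with a mean of 8.81 over 7 genes, against 6.59 to 7.06 on the other controls and 6.19 to 7.01 on treated arrays. All 7 had lower means with corticosteroid (median -0.57), with 0 at an unadjusted p under 0.05. Each of the 7 had its highest value on control replicate 2, and their differences without that array were not examined. Fibroblast markers (4 genes) stood at 9.51 there and at 8.41 to 9.07 on the other arrays. The part of other cells and of fibre type in the values of the members was not tested, and in whole muscle fewer cells of a type and less RNA per cell cannot be told apart. Of 11 interferon-response genes, 6 were higher (median 0.00). Their mean level was 7.90 on control replicate 1, 7.88 on corticosteroid replicate 3 and 6.23 to 6.77 on the others. USP18, which removes the interferon-induced modifier ISG15 and was looked at for that reason, had its highest values on the same arrays, 7.30 and 8.07, and differed by 0.36 (SE 0.35). USP18 is a moved member, and its corticosteroid mean was 8.7 with the rows as deposited and 7.1 after re-ordering.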

How the data were processed

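Deposited values were log2 expression levels per probe set on an Affymetrix porcine array, with 1 array per sample. The submitters' processing notes name MAS5. Any scaling between arrays by the authors was not given in the sources used here.

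As deposited, the control and corticosteroid columns were not in the same row order. The corticosteroid values were re-assigned to probe IDs sorted with full stops ignored, which moved 9389 of 23999 probe sets and 35 of 96 members. That order was found from the values. The 64 reporter probe sets were left out. Genes were named from the platform annotation, and a probe set with more than 1 symbol was left unnamed. Of the members, 90 were found in the porcine gene table by gene ID.

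limma 3.58.1 in R 4.3.3 (lmFit, eBayes with intensity trend) was fitted on the 14361 probe sets above the 40th percentile of mean level (5.272), with Benjamini-Hochberg adjustment over all of them at 0.05. Named genes were FBXO32, UBE2N, TRIM63, TRIM54, TRIM55, FBXO40, FBXO30, USP14, USP19 and UBE2B where they are members, the 8 members of smallest p in each direction, the member of smallest p in each direction per class, all of a class of 5 or fewer any with non-overlapping groups, and up to 3 genes of smallest p per pathway list. Alternatives covered the filter, scaling, pseudocount, variance model, array weights, probe set choice, row order, replicate block and arrays left out. Other members are given by name and range. The members and lists were chosen with earlier results of these data known. The fit was tested on simulated data. Tables used pandas 2.3.3, numpy 2.4.6 and Python 3.11.15. With 4 arrays a group, their number limits the precision.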

Additional observations from a re-analysis of the deposited data

Results flagged for a closer look

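Of 74 groups of 4 arrays (the named genes and the class scores in each treatment group), 6 held an array whose gap to its nearest neighbour took up a larger share of the group's range than Dixon's 95% critical value, a mark that chance passes in about 1 of 20 groups. For TRIM24, control replicate 2 (6.90) lay below the other controls (share of the range 0.944). For RNF25, corticosteroid replicate 3 (8.23) lay above the other treated arrays (0.889). TRIM27 was high on control replicate 3 (8.34, 0.863) and FBXW7 on control replicate 4 (8.54, 0.932). The score of the HECT and U-box ligases was low on control replicate 2 (-0.403, 0.926), and that of the deubiquitinases on corticosteroid replicate 4 (-0.054, 0.883).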

How the results depend on the processing

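Apart from the deposited row order, 20 alternatives were run. They gave 570 values of the 29 named genes, of which 563 kept the sign given above. In these, 26 of 29 genes kept it throughout and the smallest adjusted p of a named gene was 0.31. The sign turned for TRIM55 without control 2 and corticosteroid 4 (-0.11), and for UBE4A with array weights (-0.04) and without that pair (-0.18). With 1 array left out, TRIM55 ran from -0.14 to 0.43, UBE4A from -0.15 to 0.26 and FBXO32 from -0.16 to 0.86. With 1 array left out, 0 members passed the threshold, the unadjusted counts ran from 1 to 4 (higher) and from 0 to 5 (lower), non-overlapping members from 4 to 12, the E2 median from -0.12 to 0.10 and the RNF median from 0.04 to 0.16. Array weights and quantile normalization each gave 2 lower members, beside 4.99% and 4.59% of all probe sets. Without control 2 and corticosteroid 4 there were 10 non-overlapping members (beside 11.7% of all probe sets) and a cullin median of 0.01. In rows unmoved by the re-ordering the E2 median was -0.17 and the RNF median 0.17. With rows as deposited, 28 members passed the threshold (34.9% of all probe sets), 10 were higher (12.6%) and 22 lower (27.4%) at unadjusted p under 0.05, and 28 did not overlap (35.4%), with medians of -0.22 (E2), -2.20 (cullins) and 0.17 (RNF). Of the named genes 7 passed the threshold there, and 5 turned sign: FBXL5 (-4.0), UBE3D (-0.96), TRIM13 (0.57), UBE2D4 (-1.68) and CUL4A (-3.80). The 35 moved members had a median absolute difference of 1.87, against 0.25 after re-ordering. Between arrays of the same replicate number the correlations of deviations were -0.246, 0.109, 0.105 and 0.053. Those of arrays with unlike numbers ran from -0.315 to 0.268. With 4 arrays a group these values cannot settle whether the numbers pair the arrays. The replicate block gave 3 higher members (beside 4.86% of all probe sets) and 0 lower members (4.41%), 0 past the threshold. The causes of the other changes were not tested. With 4 arrays a group, a median standard error of 0.22 limits what could be detected.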
